A study of Mus musculus with 2 samples.

Results

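The 9 genes Ifit1, Ifit2, Ifit3, Isg15, Irf7, Ifi27l2a, Bst2, Oasl2 and Usp18, all known targets of interferon, were followed through the cell classes of the mouse preoptic area. They were chosen by symbol from the 31054 genes listed in the matrices, and each symbol matched 1 row. The preoptic area lies at the front of the hypothalamus and holds neurons that act on sleep, body temperature and reproduction. The SD+RS library came from C57BL/6J mice aged 9 to 10 weeks that had 2 h of recovery sleep following 6 h of sleep deprivation. The SD library came from C57BL/6J mice of the same age taken directly after 6 h of sleep deprivation. Both pools mixed males with females, and how many mice each held is not stated in the sources used here. Cells were prepared by Act-seq, in which transcription is blocked while the tissue is taken apart, and profiled on the 10x Genomics platform, which counts single RNA molecules as unique molecular identifiers (UMIs). With 1 library per group the values compare 2 libraries and not the conditions, so no p-value is given, and all intervals are exact 95% intervals that cover counting error only.

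Type I interferons bind a receptor made of Ifnar1 and Ifnar2, and the signal passes through kinases at the receptor to the nucleus. There it acts on the interferon-stimulated response element, a short motif in the promoters of target genes. In a brain free of infection these genes are kept at a low level, and endothelial cells, which line the vessels, and microglia are known responders. Ifit1, Ifit2 and Ifit3 encode proteins that bind viral RNA or work with those that do. Isg15 encodes a ubiquitin-like tag, and Usp18 encodes the protease that removes it and also dampens the receptor. Irf7 encodes a transcription factor that raises interferon production. Bst2 encodes tetherin, which holds budding virus at the cell surface, Oasl2 encodes an antiviral protein of the oligoadenylate synthetase-like family, and Ifi27l2a encodes a small membrane protein.

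On mm10 the 3 Ifit genes lie close together on chromosome 19, with Ifit2 at chr19:34550694-34576419, Ifit3 at chr19:34583531-34588731 and Ifit1 at chr19:34640871-34650009, all on the plus strand. Isg15 lies at chr4:156199424-156200818, Irf7 at chr7:141262706-141266481, Ifi27l2a at chr12:103442167-103443680 and Bst2 at chr8:71534255-71537456, all on the minus strand. Oasl2 lies at chr5:114896936-114912234 and Usp18 at chr6:121245906-121270917, both on the plus strand. Promoter sequences of 300 bases, from 250 before to 50 after the RefSeq start, were at hand for 7 of the 9 genes (GRCm38.p6). Both strands were searched for the core of the interferon-stimulated response element, which is GAAA, any 2 bases and GAAA again. It was present for 4 of these 7 genes and in 3.44% of all 32851 promoters of that length. Ifit1, Ifit3, Isg15 and Bst2 hold it, and Ifit2, Irf7 and Oasl2 do not. The endothelial cells that carried Ifit1, Ifit3, Isg15, Irf7 and Oasl2 overlapped, and Bst2 was found in further classes as well. The part of the motif in this was not tested. The 4 promoters that hold it are shown. Each is written 5′ to 3′ on the strand of its gene, and capitals mark the core, which lies on the other strand in the Ifit genes and so reads TTTC, any 2 bases and TTTC. Overlapping cores run together as 1 stretch of capitals.
Ifit1, chr19:34640639-34640938, plus strand: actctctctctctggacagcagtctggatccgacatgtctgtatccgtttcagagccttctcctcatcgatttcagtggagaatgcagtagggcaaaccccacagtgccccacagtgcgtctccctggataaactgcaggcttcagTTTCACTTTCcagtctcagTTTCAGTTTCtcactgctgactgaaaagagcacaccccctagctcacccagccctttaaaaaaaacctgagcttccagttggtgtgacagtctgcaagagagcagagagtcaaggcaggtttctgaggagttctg
Ifit3, chr19:34583279-34583578, plus strand: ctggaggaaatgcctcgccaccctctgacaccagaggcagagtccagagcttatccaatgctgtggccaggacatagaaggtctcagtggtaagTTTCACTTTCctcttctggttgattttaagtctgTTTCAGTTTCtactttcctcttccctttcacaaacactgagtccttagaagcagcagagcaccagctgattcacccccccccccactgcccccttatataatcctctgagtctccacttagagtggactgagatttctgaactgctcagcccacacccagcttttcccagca
Isg15, chr4:156200769-156201068, minus strand: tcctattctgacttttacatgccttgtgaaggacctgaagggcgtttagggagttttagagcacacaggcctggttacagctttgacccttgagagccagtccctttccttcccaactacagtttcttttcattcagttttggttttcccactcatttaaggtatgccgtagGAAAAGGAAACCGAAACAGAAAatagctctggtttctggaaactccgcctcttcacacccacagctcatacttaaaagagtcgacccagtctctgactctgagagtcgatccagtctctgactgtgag
Bst2, chr8:71537423-71537722, minus strand: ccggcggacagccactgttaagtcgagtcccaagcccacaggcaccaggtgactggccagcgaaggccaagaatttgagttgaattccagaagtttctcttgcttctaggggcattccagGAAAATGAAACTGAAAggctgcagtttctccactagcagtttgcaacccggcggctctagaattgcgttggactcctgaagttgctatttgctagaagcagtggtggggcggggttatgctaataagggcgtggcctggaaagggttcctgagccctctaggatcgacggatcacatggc

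Ifit1 and Ifit3 each hold 2 separate cores with the same letters, TTTCACTTTC and TTTCAGTTTC. Between the core and the start there were 94 and 75 bases in Ifit1 and 146 and 112 in Ifit3. Isg15 holds 3 overlapping cores, the nearest with 56 bases before the start, and Bst2 holds 2, the nearest with 114. The gamma-activated sequence TTCNNNGAA, also searched on both strands, was present in the Bst2 window and in 1 of 2 Ifit2 windows, against 8.3% of all promoters. Neither motif was found in the Irf7 or Oasl2 window. Ifi27l2a and Usp18 had no sequence in the table.

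After filters and removal of called doublets, 7415 cells of the SD+RS library and 9297 of the SD library were kept, with 115669833 (SD+RS) and 119898560 (SD) UMIs. Clustering of both libraries together, without the interferon genes, gave 7 classes with at least 100 cells in each library, named from marker genes. Neurons numbered 4295 in the SD+RS library and 3872 in the SD library, astrocytes 1274 (SD+RS) and 2095 (SD), oligodendrocytes 834 (SD+RS) and 1367 (SD), and oligodendrocyte precursors 175 (SD+RS) and 263 (SD). Endothelial cells numbered 292 in the SD+RS library and 466 in the SD library, microglia 169 (SD+RS) and 222 (SD), and mural cells, the contractile cells of the vessel wall, 122 (SD+RS) and 211 (SD). Border macrophages, with 11 SD+RS and 18 SD cells, and fibroblasts, with 14 SD+RS and 18 SD cells, are given only as values. One cluster of 133 SD+RS and 156 SD cells, with both endothelial and mural markers, stayed unnamed. Endothelial markers scored highest in it, but its leading genes held more markers of another class. The SD+RS library had 5285 cells with Xist UMIs alone and 1415 with Y-linked UMIs alone, whereas the SD library had 3740 with Xist UMIs alone and 3799 with Y-linked UMIs alone, so the share of cells from females and males differed between the pools. The libraries shared 23 barcodes. Of the 10 to 14 heat shock genes measured per class, between 4 and 13 were lower in the SD+RS library by at least 1.5 times and 0 were higher, in each of the 7 classes. Of all genes measured per class, between 2.72% (neurons) and 11.1% (mural cells) were lower by that much. Between 1.62% (neurons) and 6.3% (endothelial cells) were higher. The part of the heat shock genes in the results below was not tested.

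Endothelial cells carried the 9 genes at the highest summed level of the 7 classes, at 693 UMIs per 1000000 UMIs of the class (CPM; interval 648 to 740) in the SD+RS library and 719 CPM (684 to 755) in the SD library. Microglia followed with 232 CPM (SD+RS) and 226 CPM (SD) and mural cells with 137 CPM (SD+RS) and 161 CPM (SD), and each step in this order was beyond counting error in both libraries. Neurons had 12.6 CPM (SD+RS) and 12.5 CPM (SD) and oligodendrocytes 10.97 CPM (SD+RS) and 10.6 CPM (SD), the lowest 2 classes, and these neighbours did not differ beyond counting error. Without Bst2 and Ifi27l2a, whose pattern was different, the sum of the other 7 genes was 451 CPM in SD+RS endothelial cells and 483 CPM in SD endothelial cells. On that sum microglia stood lower, at 32.2 CPM in the SD+RS library and 9.74 CPM in the SD library. Ifit2 is among the 7 but was not highest in endothelial cells, where it had 10.9 CPM (SD+RS) and 8.51 CPM (SD). Endothelial markers made up 22263 CPM of SD+RS endothelial cells and 20994 CPM of SD endothelial cells, and all 8 were detected in both.

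Within the endothelium the level of most of the 9 genes differed little between the libraries. Ifit1 had 134 UMIs in SD+RS endothelial cells, or 104 CPM (87.5 to 124), and 306 UMIs in SD endothelial cells, or 137 CPM (122 to 153). It was the only one of the 9 whose interval excluded no difference, with a log2 ratio of -0.39 (-0.70 to -0.10), so the SD+RS library lay lower beyond counting error. Among all genes with at least 20 UMIs in this class, 7.75% were lower and 9.56% higher by that rule, so 1 of 9 is near the background. For Ifit1 the log2 ratio was -0.71 (-1.10 to -0.33) in cells with Xist UMIs only and 0.49 (-0.24 to 1.16) in cells with Y-linked UMIs only. Isg15 stood at 94.3 CPM in SD+RS endothelial cells and 107 CPM in SD endothelial cells, and Irf7 at 84.96 (SD+RS) and 87.8 (SD) CPM. Usp18, which acts on the Isg15 tag, stood at 38.2 CPM (SD+RS) and 41.2 CPM (SD), and Oasl2 at 55.3 CPM (SD+RS) and 52.4 CPM (SD). The intervals of these 4 ratios all held 0. Ifit3 had 62.4 CPM in the SD+RS library and 49.3 CPM in the SD library, a log2 ratio of 0.34 (-0.09 to 0.77), and Ifi27l2a had 41.3 (SD+RS) and 31.4 (SD) CPM, a ratio of 0.40 (-0.15 to 0.93). Bst2 was at 201 CPM in SD+RS endothelial cells and 204 CPM in SD endothelial cells, with the interval of the log2 ratio from -0.25 to 0.20. Ifit2 was rare, with 14 UMIs in the SD+RS library and 19 in the SD library. None of the 8 genes with at least 50 UMIs passed 1.5 times in either direction, where 6.3% of all genes were higher and 5.73% lower by that much. Markers of other cells differed between the endothelial cells of the libraries. The 4 erythrocyte markers summed to 5272 CPM in SD+RS endothelial cells and 2.69 CPM in SD endothelial cells, and the 8 oligodendrocyte markers to 94.3 CPM (SD+RS) and 390 CPM (SD). Mural markers summed to 975 CPM (SD+RS) and 1357 CPM (SD), and microglial markers to 45.2 CPM (SD+RS) and 98.6 CPM (SD). Their part in the endothelial ratios, of the 9 genes and of the further genes given later, was not tested.

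**Figure D1:**
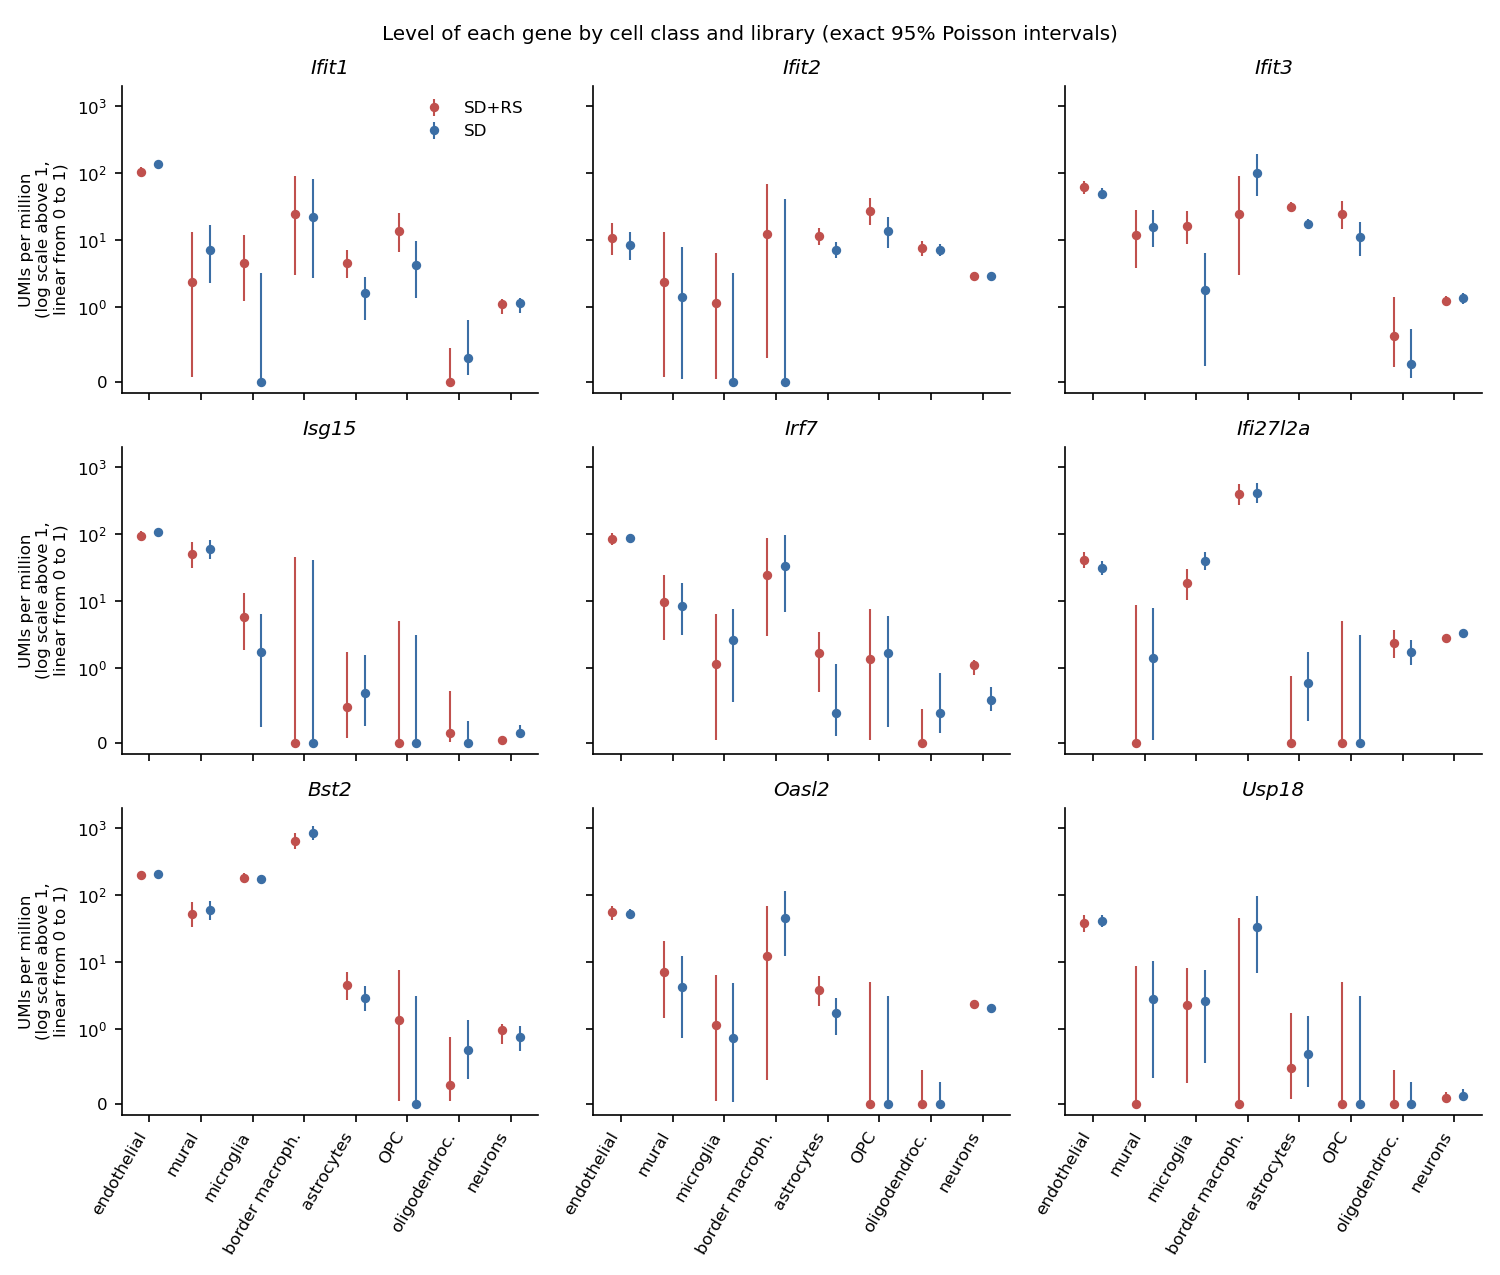
Each panel plots the level of 1 gene, in CPM on an axis that is linear from 0 to 1 and logarithmic above, by cell class, with SD+RS in red left of SD in blue and exact 95% Poisson intervals. Among the classes drawn, which leave out fibroblasts, Ifit1 peaks in endothelial cells at 104 (SD+RS) and 137 (SD) CPM. Bst2 and Ifi27l2a peak in border macrophages, whose few cells give wide intervals in other panels. Ifit2 is spread over several classes.

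Apart from Bst2, each gene was carried by a minority of endothelial cells, and the carriers overlapped. Bst2 had a UMI in 49.3% of SD+RS endothelial cells and 51.3% of SD endothelial cells. For the genes other than Bst2, Ifi27l2a and Ifit2 the share of carriers lay between 13.7% for Usp18 and 25.3% for Isg15 in the SD+RS library, and between 14.2% for Ifit3 and 30.04% for Ifit1 in the SD library. Few cells held most of the molecules: 18 of 292 SD+RS endothelial cells held 50% of the Ifit1 UMIs, and 30 of 466 SD cells did. The highest single cell had 11 Ifit1 UMIs in the SD+RS library and 13 in the SD library. After thinning of every cell to 2000 UMIs, with 49 SD+RS and 57 SD endothelial cells left out as shallower, the Ifit1 share was 16.0% (SD+RS) and 19.4% (SD). As a low end that free RNA could also give, Isg15 had a thinned share of 0.0198% in SD+RS neurons and 0.0423% in SD neurons, against 16.3% (SD+RS) and 17.5% (SD) in endothelial cells. Without thinning the share was 0.0698% of SD+RS neurons, at a median of 21230 UMIs, and 0.310% of SD neurons, at a median of 21883.5 UMIs. In endothelial cells it was 25.3% in the SD+RS library, at a median of 3187 UMIs, and 29.0% in the SD library, at a median of 3547 UMIs.

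At least 1 of the 7 genes other than Bst2 and Ifi27l2a was found in 57.5% of SD+RS endothelial cells and 62.7% of SD endothelial cells. At least 3 of the 7 were found in 49 of 292 SD+RS cells, which is 16.8% (12.7 to 21.6), and in 103 of 466 SD cells, which is 22.1% (18.4 to 26.1). These intervals overlap. The cells with at least 3 genes held 61.1% of the class's UMIs of the 7 genes in the SD+RS library and 71.1% in the SD library. They were deeper than the rest, with a median of 5576 against 3096 UMIs in the SD+RS library and 5298 against 3341 in the SD library, and the part of depth in the overlap was not tested. Of the 51 SD+RS endothelial cells with Ifit3, 68.6% also had Isg15 and 60.8% had Ifit1. Of the 66 SD endothelial cells with Ifit3, 63.6% had Isg15 and 65.2% had Ifit1. Among SD+RS endothelial cells without Ifit3 16.2% had Ifit1, at a median depth of 3096 UMIs against 4258 in the Ifit3 cells. Of the 70 SD+RS endothelial cells with Ifit1, 44.3% had Ifit3, 42.9% Irf7 and 32.9% Oasl2. Of the 140 SD endothelial cells with Ifit1, 30.7% had Ifit3, 46.4% Irf7 and 37.9% Oasl2.

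**Figure D2:**
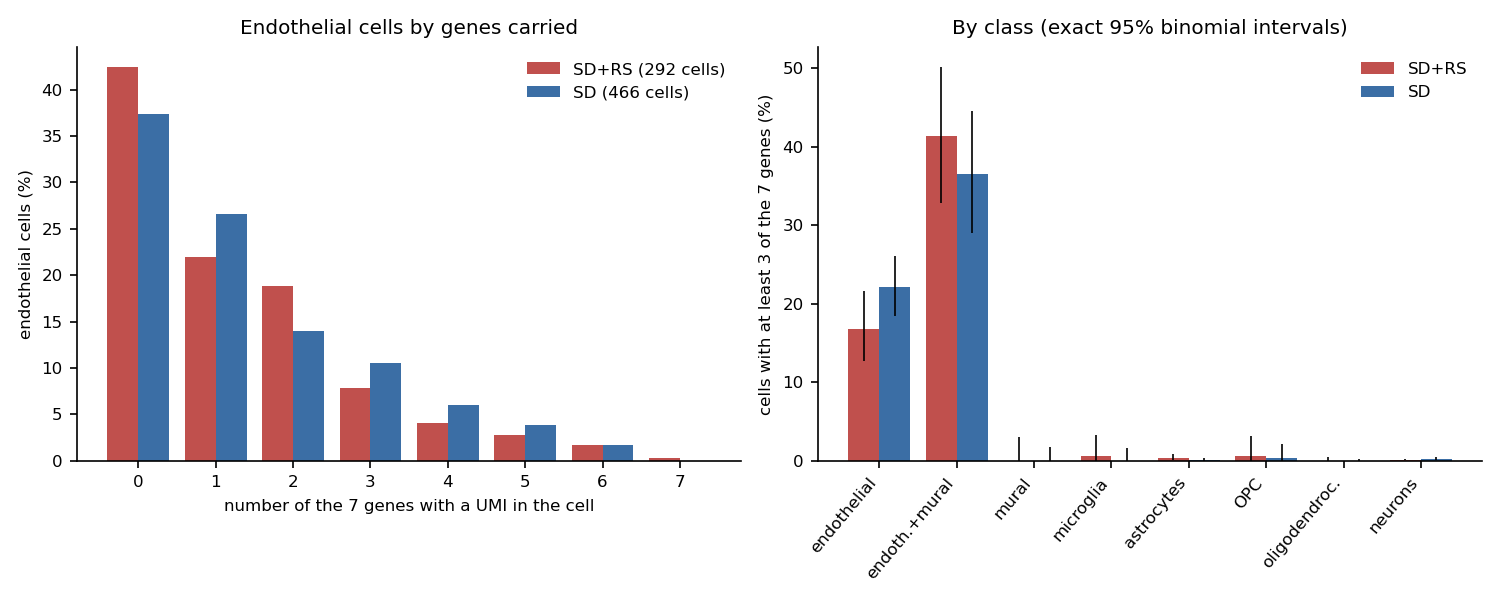
The left panel gives the percentage of endothelial cells by the number of the 7 genes with a UMI, SD+RS in red left of SD in blue. The right panel gives the percentage of cells with at least 3 of the 7 genes by class with exact 95% binomial intervals, which is 16.8% (SD+RS) and 22.1% (SD) in endothelial cells, 41.4% (SD+RS) and 36.5% (SD) in the cluster with endothelial and mural markers, and under 1% in the other classes drawn.

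**Figure D3:**
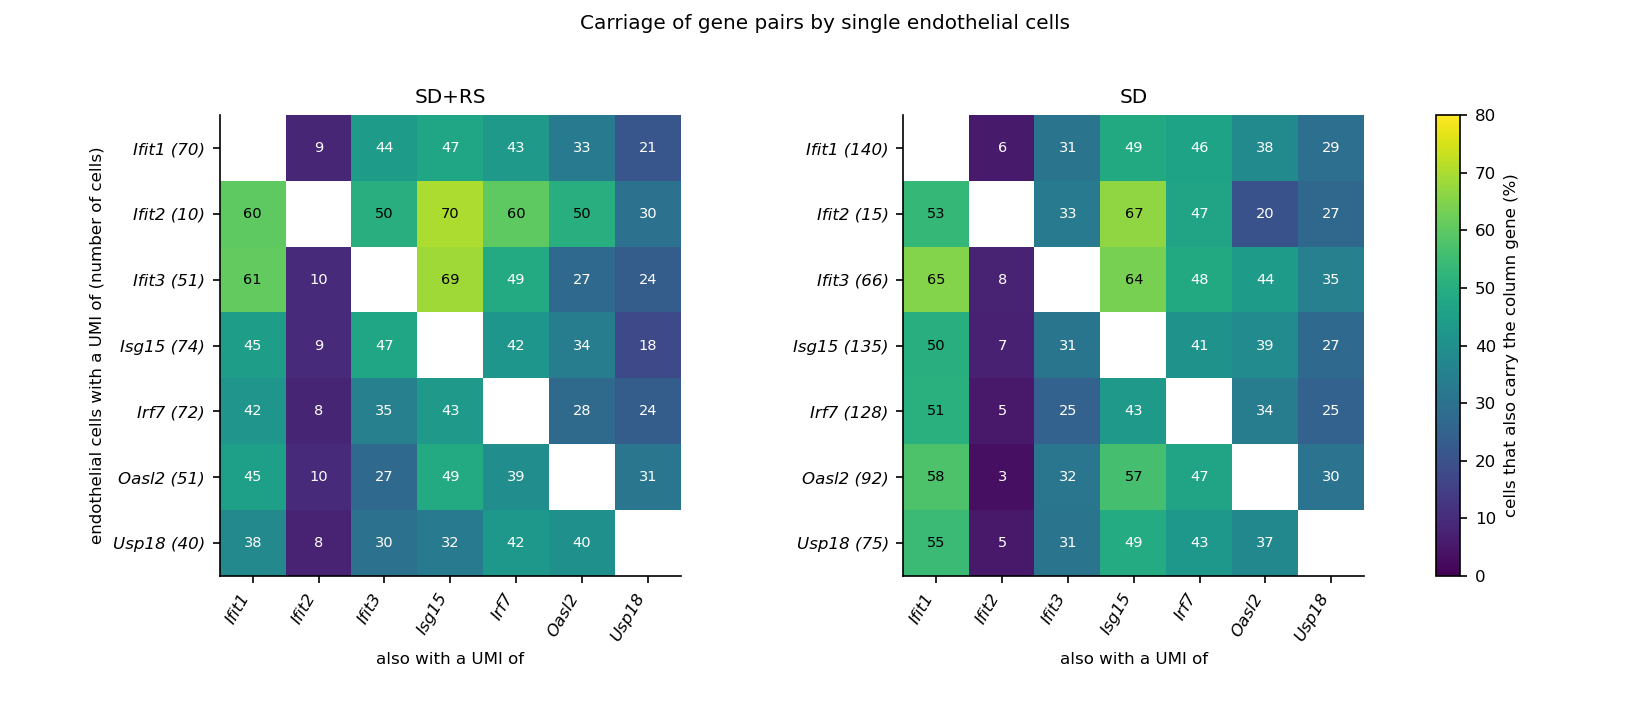
Each square gives the percentage of endothelial cells with a UMI of the row gene, their number in brackets, that also had a UMI of the column gene, for SD+RS at left and SD at right. The Isg15 column holds the highest square of each library, and 68.6% of SD+RS and 63.6% of SD Ifit3 cells had Isg15, while the Ifit2 column holds the lowest.

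The unnamed cluster with both endothelial and mural markers had 725 CPM of the 9 genes in SD+RS cells and 537 CPM in SD cells, a log2 ratio of 0.43 (0.29 to 0.57). Irf7 stood at 110.1 CPM in its SD+RS cells and 60.6 CPM in its SD cells, a ratio of 0.86 (0.47 to 1.26). Ifit3 stood at 67.4 CPM (SD+RS) and 31.9 CPM (SD), a ratio of 1.08 (0.55 to 1.62), and Isg15 at 110.1 CPM (SD+RS) and 69.9 CPM (SD), a ratio of 0.66 (0.28 to 1.04). Ifi27l2a, with 35 SD+RS and 22 SD UMIs, had a ratio of 0.97 (0.16 to 1.81). In contrast to these 4, Ifit1 was at 120.0 CPM (SD+RS) and 111 CPM (SD), with the interval of the ratio from -0.22 to 0.44. Endothelial markers summed to 14793 CPM in its SD+RS cells and 14057 CPM in its SD cells, and mural markers to 12211 (SD+RS) and 10852 (SD) CPM, so both were slightly higher in the SD+RS library. Erythrocyte markers summed to 165 CPM in its SD+RS cells and 0 CPM in its SD cells, and oligodendrocyte markers to 153 CPM (SD+RS) and 403 CPM (SD). The part of these markers in the result was not tested. By the interval rule 4 of the 9 genes were thus higher and 0 lower, where 8.44% of the cluster's genes with at least 20 UMIs were higher and 6.28% lower. The same 4, of 8 with at least 50 UMIs, were higher past 1.5 times, where 5.82% of all genes of the cluster were higher and 4.81% lower. At least 3 of the 7 genes were found in 55 of the 133 SD+RS cells and in 57 of the 156 SD cells, at a median depth of 8208 (SD+RS) and 8703.5 (SD) UMIs for the whole cluster.

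Mural cells carried mainly Isg15 and Bst2, and the other genes had few UMIs there. Isg15 had 21 UMIs in SD+RS mural cells, or 50.4 CPM, and 42 UMIs in SD mural cells, or 59.9 CPM, and Bst2 had 52.8 (SD+RS) and 59.9 (SD) CPM. For Isg15 the class stood second to the endothelium in both libraries, and the step down to microglia was beyond counting error. Ifit1 had 1 UMI in SD+RS mural cells and 5 in SD mural cells, and no mural cell in either library had 3 of the 7 genes. Endothelial markers in mural cells summed to 194 CPM in the SD+RS library and 577 CPM in the SD library. In mural cells with a UMI of the 7 genes they summed to 188 CPM (SD+RS) and 1155 CPM (SD), and in those without to 197 CPM (SD+RS) and 361 CPM (SD). The part of endothelial RNA in the mural values was not tested. Neither Isg15 nor Bst2 passed 1.5 times, where 4.78% of all genes in the class were higher and 11.1% lower. Both intervals held 0, where 5.03% of genes with at least 20 UMIs were higher and 7.82% lower by the interval rule.

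In the macrophage lineage Bst2 and Ifi27l2a stood apart from the other 7 genes. Bst2 had 181 CPM in SD+RS microglia (154 to 212) and 176 CPM in SD microglia (153 to 203), and 59.2% (SD+RS) and 59.0% (SD) of the cells carried it. That level did not differ from the endothelial one beyond counting error in either library. No single cell weighed much on it, since the 10 highest cells held 20.3% of the UMIs in the SD+RS library and 18.6% in the SD library. In border macrophages Bst2 reached 654 CPM in the SD+RS library and 853 CPM in the SD library, with 11 of 11 SD+RS and 16 of 18 SD cells carrying it. Ifi27l2a reached 395 CPM there in the SD+RS library, in 9 of 11 cells, and 415 CPM in the SD library, in 10 of 18 cells.

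In microglia 1 cell weighed heavily on the Ifi27l2a ratio. It had 16 UMIs in SD+RS microglia, or 18.4 CPM, and 45 UMIs in SD microglia, or 39.9 CPM, a log2 ratio of -1.12 (-2.04 to -0.27). A single SD cell held 27 of the 45 UMIs, and 5.92% of SD+RS microglia and 6.76% of SD microglia carried the gene. It was the 1 of 2 microglial genes with at least 50 UMIs past 1.5 times, where 4.59% of all genes were higher and 6.62% lower. By the interval rule 5.76% of the genes with at least 20 UMIs were higher and 6.75% lower. With every cell thinned to 2000 UMIs the log2 ratio was -0.22 (-1.72 to 1.19). The 7 other genes were close to absent from microglia. They summed to 28 UMIs in the SD+RS library and 11 in the SD library, a log2 ratio of 1.72 (0.67 to 2.88), but 19 of the 28 came from 1 cell with 13 Ifit3, 4 Ifit1, 1 Ifit2 and 1 Isg15 UMIs. That cell had no endothelial marker UMI and 4782 UMIs in all.

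Astrocytes carried the Ifit genes at a low level, and this level was higher in the SD+RS library. Ifit3 had 131 UMIs in 110 of 1274 SD+RS astrocytes, or 31.6 CPM (26.5 to 37.6), and 130 UMIs in 123 of 2095 SD astrocytes, or 17.3 CPM (14.5 to 20.6). The log2 ratio was 0.87 (0.51 to 1.23). Most carriers held 1 UMI, 99 of 110 in the SD+RS library and 117 of 123 in the SD library. Ifit2 stood at 11.4 CPM in SD+RS astrocytes and 7.20 CPM in SD astrocytes, a ratio of 0.66 (0.06 to 1.25), and Ifit1 at 4.59 (SD+RS) and 1.60 (SD) CPM, a ratio of 1.52 (0.40 to 2.70). Oasl2 had 16 (SD+RS) and 13 (SD) UMIs, a ratio of 1.16 (0.01 to 2.33), and 3 SD+RS cells held 50% of its UMIs. The interval of Ifit2 held 0 without the 10 cells with the most of its UMIs, at 0.64 (-0.06 to 1.32), and that of Oasl2 did so with mitochondrial UMIs under 10%, at 1.12 (-0.03 to 2.29). Isg15, with 2 UMIs in SD+RS astrocytes and 5 in SD astrocytes, and Usp18, with 2 (SD+RS) and 5 (SD), were near the limit of detection. Of the 5 genes with at least 20 UMIs, 4 were higher and 0 lower, where 12.1% of such genes in astrocytes were higher and 17% lower. Both genes with at least 50 UMIs passed 1.5 times, where 3.85% of all genes were higher and 7.17% lower.

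The astrocytes of the libraries fell largely in different clusters, so the ratio compares cells that also differ in other genes. One cluster, led by Itih3, Gm3764 and Agt, held 1089 SD+RS and 89 SD astrocytes, and another, led by F3, Gjb6 and Etnppl, held 86 SD+RS and 1784 SD astrocytes. Within the first the sum of the 7 genes was 57.3 CPM in SD+RS cells and 26.4 CPM in SD cells, a log2 ratio of 1.12 (0.11 to 2.35) that rests on 8 SD UMIs. Within the other it was 15.4 (SD+RS) and 30.1 (SD) CPM, a ratio of -0.96 (-2.85 to 0.42) that rests on 4 SD+RS UMIs. A small cluster led by Gfap and Fbln5 had 67.1 CPM in 27 SD+RS cells and 30.4 CPM in 95 SD cells, a ratio of 1.14 (-0.10 to 2.32). The parts of cluster and library cannot be told apart. Over all astrocytes the sum of the 9 genes was 58.7 CPM in the SD+RS library and 33.3 CPM in the SD library, a ratio of 0.82 (0.56 to 1.08). Without the 10 cells of each library with the most of these UMIs it was 0.55 (0.26 to 0.84). It was 0.69 (0.37 to 1.01) in cells with Xist UMIs only and 0.55 (-0.17 to 1.24) in cells with Y-linked UMIs only. Endothelial markers were lower in SD+RS astrocytes, at 21.0 CPM, than in SD astrocytes, at 35.0 CPM, and border macrophage markers were at 1.21 (SD+RS) and 1.07 (SD) CPM. Microglial markers were at 98.8 CPM in SD+RS astrocytes and 91.4 CPM in SD astrocytes, and their part in the result was not tested.

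Ifit3 has a near-identical neighbour, Ifit3b, and reads could be split between them, so single values of either are uncertain. Ifit3b had 104 UMIs in SD+RS astrocytes, or 25.1 CPM, and 139 UMIs in SD astrocytes, or 18.5 CPM, a log2 ratio of 0.44 (0.06 to 0.82). In endothelial cells Ifit3b was at 25.7 CPM in the SD+RS library and 16.1 CPM in the SD library. The copy of Ifi27l2a named Ifi27l2b had 0 UMIs in SD+RS cells and 1 UMI in SD cells of all kinds.

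Oligodendrocyte precursors, the dividing cells that give rise to oligodendrocytes, had the highest Ifit2 level of the 7 classes. The step to the next class was beyond counting error in the SD+RS library but not in the SD library. Ifit2 was higher in fibroblasts, outside these 7 classes, at 149 CPM (68.2 to 283) in SD+RS and 117 CPM (58.2 to 209) in SD cells. It had a UMI in 4 of 14 SD+RS and 6 of 18 SD fibroblasts. Ifit2 had 20 UMIs in 18 of 175 SD+RS precursors, or 27.4 CPM, and 16 UMIs in 16 of 263 SD precursors, or 13.5 CPM, a log2 ratio of 1.02 (0.00085 to 2.07), or 0.95 (-0.06 to 1.97) with doublets kept. Ifit3 had 18 UMIs in the SD+RS library and 13 in the SD library, a ratio of 1.17 (0.06 to 2.32), and 1 SD cell held 6 of those 13. Both of the 2 genes with at least 20 UMIs were thus higher, where 4.68% of such genes in the class were higher and 5.32% lower. The sum of the 9 genes was 68.5 CPM in SD+RS precursors and 30.3 CPM in SD precursors. Its log2 ratio was 2.10 (1.08 to 3.27) in cells with Xist UMIs only and -0.35 (-1.95 to 1.02) in cells with Y-linked UMIs only, so the direction differed between these subsets. Isg15, Oasl2, Usp18 and Ifi27l2a had no UMI in the precursors of either library, where 3 counts would be 4.11 CPM (SD+RS) and 2.53 CPM (SD).

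Mature oligodendrocytes, the myelin-forming cells, carried Ifit2 and Ifi27l2a and almost none of the rest. Ifit2 had 62 UMIs in SD+RS oligodendrocytes, or 7.64 CPM, and 89 UMIs in SD oligodendrocytes, or 7.14 CPM, spread over 57 SD+RS and 85 SD cells, with a ratio between -0.39 and 0.58. Ifi27l2a had 19 UMIs over 14 SD+RS cells and 22 UMIs over 8 SD cells, of which 1 SD cell held 14. Oasl2 and Usp18 had 0 UMIs in this class in both libraries, where 3 counts would be 0.370 CPM (SD+RS) and 0.241 CPM (SD). Isg15 had 1 UMI in SD+RS oligodendrocytes and 0 in SD oligodendrocytes. Ifit2, the 1 gene with at least 50 UMIs, did not pass 1.5 times, where 4.23% of all genes were higher and 6.51% lower. The intervals of Ifit2 and Ifi27l2a held 0, where 14.6% of genes with at least 20 UMIs were higher and 18.5% lower by the interval rule.

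Neurons held the most cells and, at a low level per cell, many of the molecules of some genes. They held 61.5% of all Ifit2 UMIs in the SD+RS library and 54.9% in the SD library, 59.2% (SD+RS) and 47.3% (SD) of the Oasl2 UMIs, and 63.7% (SD+RS) and 59.0% (SD) of the Ifi27l2a UMIs. Of the Isg15 UMIs they held 1.05% (SD+RS) and 2.96% (SD), and of the Usp18 UMIs 8.08% (SD+RS) and 5.88% (SD). Ifit2 was spread thinly, with 1 UMI in 241 of its 264 SD+RS neurons and in 233 of its 247 SD neurons. Ifi27l2a was concentrated, with 28 UMIs in the highest SD+RS neuron and 29 in the highest SD neuron, and the 10 highest neurons held 36.8% (SD+RS) and 41.4% (SD) of its UMIs.

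Irf7 was the neuronal gene that was higher in the SD+RS library. It had 108 UMIs in 100 of 4295 SD+RS neurons, or 1.102 CPM (0.904 to 1.33), and 51 UMIs in 51 of 3872 SD neurons, or 0.567 CPM (0.422 to 0.745). The log2 ratio was 0.96 (0.47 to 1.47). It was 0.85 (0.13 to 1.63) in neurons with Xist UMIs only and 0.84 (-0.08 to 1.74) in those with Y-linked UMIs only. Without the 10 cells of each library with the most Irf7 UMIs it was 1.01 (0.46 to 1.58). After thinning to 2000 UMIs, which left 13 SD+RS and 4 SD Irf7 UMIs, it was 1.54 (-0.16 to 3.61). Endothelial markers summed to 92.4 CPM in SD+RS neurons and 88.3 CPM in SD neurons, and microglial markers to 18.5 (SD+RS) and 19.7 (SD) CPM. Irf7 was the 1 of 7 neuronal genes with at least 50 UMIs past 1.5 times, where 1.62% of all genes were higher and 2.72% lower. By the interval rule 1 of the 7 was higher and 1 lower, where 19.8% of the genes with at least 20 UMIs were higher and 25.9% lower. The lower gene was Ifi27l2a, at 2.78 CPM in SD+RS neurons and 3.36 CPM in SD neurons, a ratio of -0.27 (-0.52 to -0.03). Without the 10 cells with the most Ifi27l2a UMIs it was -0.17 (-0.48 to 0.15). It was 0.08 (-0.31 to 0.47) in neurons with Xist UMIs only and -0.06 (-0.50 to 0.36) in those with Y-linked UMIs only. Ifit1, Ifit2, Ifit3, Bst2 and Oasl2 had log2 ratios between -0.12 and 0.21 in neurons, and each interval held 0.

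The neuronal molecules of some genes were spread unevenly over the clusters. Over 39 finer neuron clusters with at least 50 cells, the 3 clusters with the highest level held 59.9% of the Bst2 UMIs, 47.1% of the Usp18 UMIs, 36.9% of the Ifi27l2a UMIs, 36.2% of the Ifit1 UMIs, 33.3% of the Isg15 UMIs and 32.8% of the Oasl2 UMIs. For Irf7 they held 23.3%, for Ifit3 20.5% and for Ifit2 12.2%, while the 3 clusters of a gene held between 5.27% and 11.3% of the neurons. The 3 clusters were picked by the level of the gene itself. A high share in them is thus partly fixed by that choice, most of all for genes with few UMIs. Usp18 and Isg15 were rare in neurons, with no UMI in 30 and 31 of the 39 clusters. The clusters named next, for Bst2, Oasl2 and Ifi27l2a, are not among these 39 but come from the clustering of all cells. They were picked after their values were seen. Bst2 was concentrated in a cluster led by Oxt and Avp, the genes of the hormones oxytocin and vasopressin. There it had 65 UMIs in 23 of 40 SD+RS cells, or 26.6 CPM (20.6 to 33.9), and 25 UMIs in 15 of 35 SD cells, or 12.7 CPM (8.23 to 18.8). These were 65 of the 97 Bst2 UMIs of all SD+RS neurons and 25 of the 80 of all SD neurons. Among the 18 neuron clusters Oasl2 was highest in the same cluster in the SD+RS library, at 12.7 CPM in SD+RS cells and 7.12 CPM in SD cells, in 20 of 40 SD+RS and 11 of 35 SD cells. Its Ifi27l2a count was 0 in both libraries. The median depth of the cluster was 64402.5 UMIs in SD+RS cells and 51966 UMIs in SD cells, above that of all neurons. A neighbouring small cluster led by Gnrh1, with 11 SD+RS and 7 SD cells, had no Bst2 UMI. There 3 counts would be 12.4 CPM in the SD+RS library and 18.0 CPM in the SD library.

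Ifi27l2a was concentrated in a cluster of 18 cells led by Slc5a7, Slc18a3 and Ngfr, genes of cholinergic neurons, which release acetylcholine. It had 53 UMIs in 6 of 11 SD+RS cells there, or 67.6 CPM (50.6 to 88.4), and 90 UMIs in 6 of 7 SD cells, or 174 CPM (140 to 213). The highest neuron of each library lay in this cluster, with 28 UMIs (SD+RS) and 29 UMIs (SD). Its cells were deep, at a median of 74955 UMIs in the SD+RS library and 74200 in the SD library. Bst2 stood there at 3.83 CPM in SD+RS cells and 15.4 CPM in SD cells, from 3 (SD+RS) and 8 (SD) UMIs. A second cluster, led by Meis2, Nrgn and Six3, had 13.5 CPM in SD+RS cells and 7.57 CPM in SD cells, in 22 of 237 SD+RS and 18 of 230 SD cells.

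**Figure D4:**
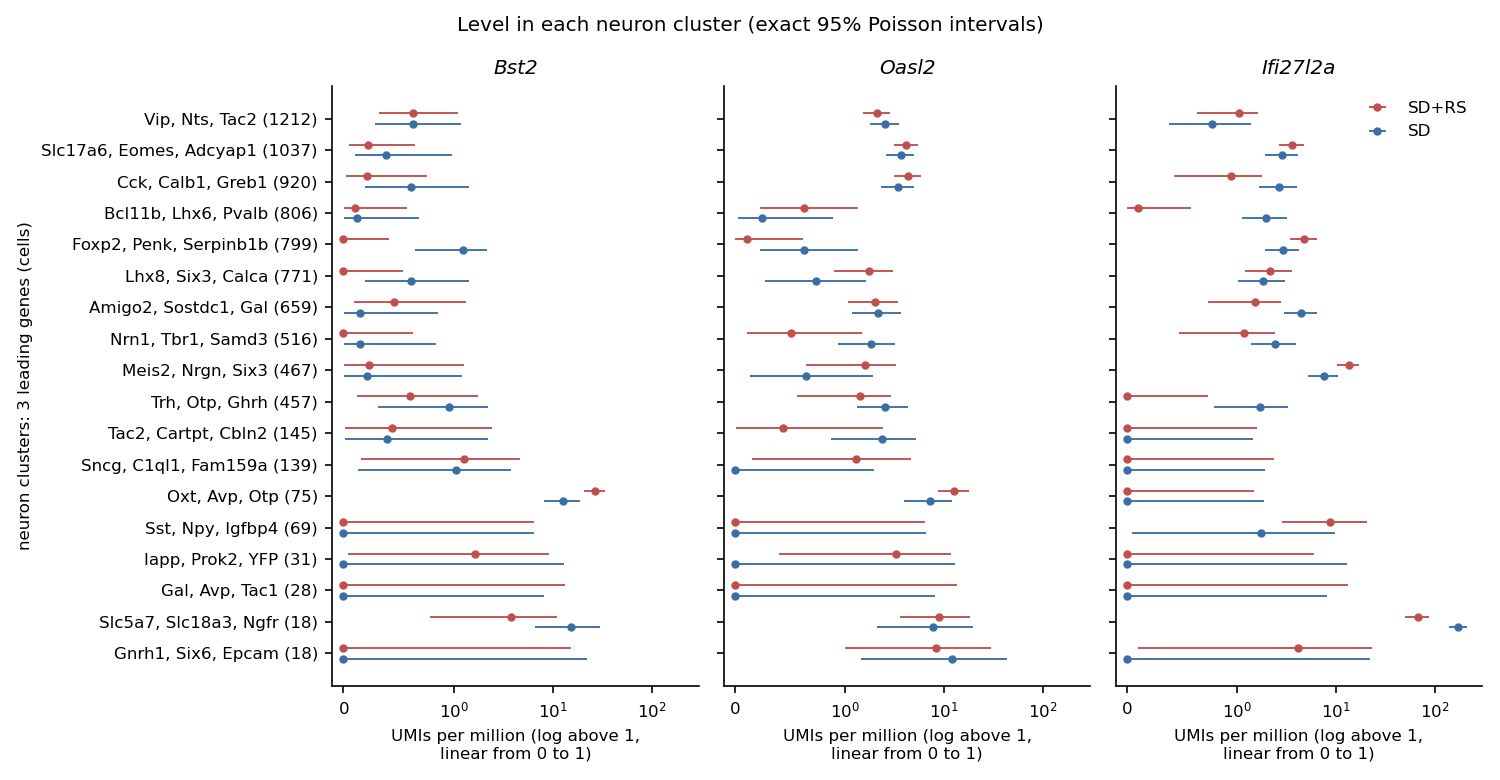
Each row is 1 neuron cluster, named by its 3 leading genes with its number of cells, and the points give the level in CPM with exact 95% Poisson intervals, SD+RS in red above SD in blue, on an axis linear to 1 and logarithmic beyond. Bst2 stands out in the Oxt and Avp cluster at 26.6 (SD+RS) and 12.7 (SD) CPM, and Ifi27l2a in the Slc5a7 cluster at 67.6 (SD+RS) and 174 (SD) CPM.

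Across the 7 classes, 29 combinations of gene and class had at least 20 UMIs. The SD+RS level was higher beyond counting error in 7 of them and lower in 3, and 19 intervals held 0. The 7 were Ifit1, Ifit2, Ifit3 and Oasl2 in astrocytes, Ifit2 and Ifit3 in oligodendrocyte precursors, and Irf7 in neurons. The 3 were Ifit1 in endothelial cells, Ifi27l2a in microglia and Ifi27l2a in neurons. The intervals of Ifit2 and Oasl2 in astrocytes, Ifit2 in precursors and Ifi27l2a in neurons held 0 in at least 1 of the settings with doublets kept, a mitochondrial limit of 10%, resolution 2.0 or the 10 highest cells left out. Each class is set beside its own background share above, since in neurons and oligodendrocytes, which have the most UMIs, this rule picked up many genes.

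**Figure D5:**
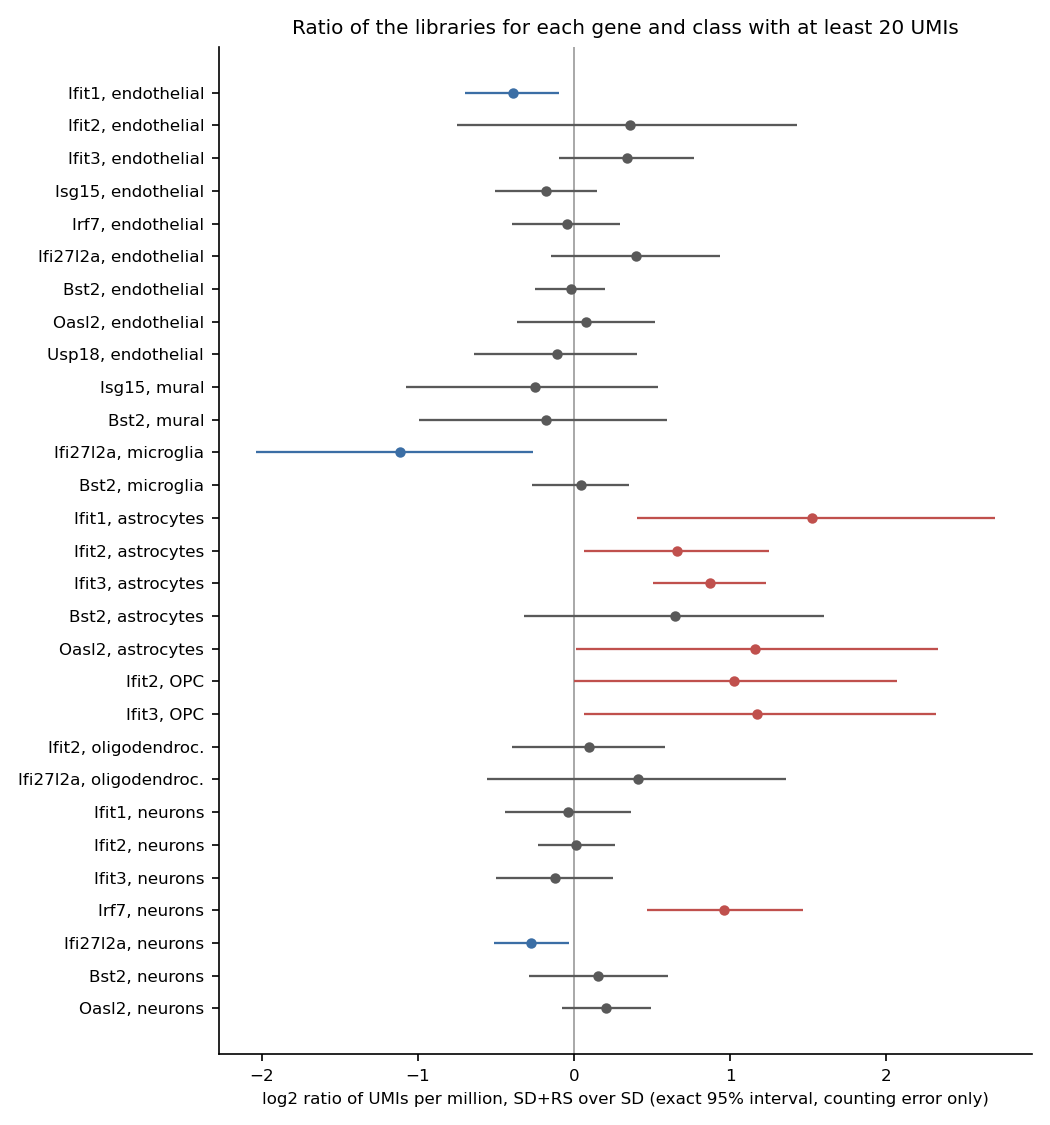
Points are log2 ratios of CPM, SD+RS over SD, for the 29 combinations of gene and class with at least 20 UMIs, with exact 95% intervals for counting error only. The 7 in red lie above 0, 4 of them in astrocytes, the 3 in blue lie below it, and the 19 in grey cross it.

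Few cells with at least 3 of the 7 genes lay outside the endothelial cells and the cluster with endothelial and mural markers. Of 117 such cells in the SD+RS library, 49 were endothelial, 55 lay in the cluster with endothelial and mural markers and 13 lay elsewhere. Of 174 in the SD library, 103 were endothelial, 57 lay in that cluster and 14 lay elsewhere. In the small classes the share was higher than in other classes elsewhere, with wide intervals. Border macrophages supplied 2 of 18 SD cells, 11.1% (1.38 to 34.7), and 0 of 11 SD+RS cells. Fibroblasts supplied 1 of 14 SD+RS cells, 7.14% (0.181 to 33.9), and 1 of 18 SD cells, 5.56% (0.141 to 27.3). These macrophages and fibroblasts all had endothelial marker UMIs. Astrocytes supplied 5 SD+RS cells and 2 SD cells, none with an endothelial marker UMI. The SD+RS astrocyte with the most held 8 Ifit3, 2 Oasl2 and 1 UMI each of Ifit1, Ifit2, Irf7, Bst2 and Usp18 among 2616 UMIs. Neurons supplied 5 SD+RS cells and 8 SD cells, all with between 1 and 75 endothelial marker UMIs. The median depth of neurons with at least 3 genes was 72924 UMIs in the SD+RS library and 32275.5 in the SD library, against 21220 (SD+RS) and 21870 (SD) for other neurons.

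Genes outside the 9 were ranked by the Pearson correlation of their level, as log2(CPM + 1), with that of the sum of the 7 genes over the 28 clusters with at least 50 cells. The 10 most alike of 14276 genes had correlations between 0.89 and 0.92, a description across clusters that share both libraries. They were Msx1, Cyr61, Wwtr1, Notch4, Sox13, Gbp2, Stom, Fzd4, Klf4 and Lnx2. Notch4, Fzd4 and Klf4 are known in vessels, and Gbp2 is itself induced by interferon. Within the endothelium, the cells with at least 3 of the 7 genes were compared with the rest for all other genes with at least 20 UMIs in them. Ifit3b had 57 UMIs there against 5.16 at the level of the other endothelial cells, in 38 cells, and Ifi44, a further interferon target, had 67 against 12.6, in 45 cells. Ifit3 UMIs were part of the choice of these cells, so with reads split between Ifit3 and Ifit3b the Ifit3b count is partly fixed by that choice. The highest ratio was that of C1qc, at 28 UMIs against 0.513, but 25 of the 28 came from 1 SD cell, which makes it a statement about that cell. For C1qa and C1qb, complement genes known from microglia, 1 cell held 100% and 92.3% of the UMIs. The 10 genes with the highest ratio also held Nov, Hbb-y, Pthlh, Npnt and F5, none of them on the interferon lists used here. Nov, at 53 UMIs against 6.04 in 7 cells, and Hbb-y, at 21 against 3.25 in 4 cells, ranked above Ifi44.

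The genes of interferon itself were almost undetected. Of 21 interferon genes in the matrices 8 had any UMI, with 15 UMIs in the SD+RS library and 14 in the SD library. The receptors were measurable, and in endothelial cells 1 of 5 with at least 50 UMIs was higher past 1.5 times and 0 were lower, where 6.3% of all endothelial genes were higher and 5.73% lower. That gene was Ifnar2, with 245 CPM in SD+RS endothelial cells and 158 CPM in SD endothelial cells, a log2 ratio of 0.63 (0.41 to 0.86). Of 7 signalling genes, Socs1, an inhibitor of the receptor kinases, was lower, at 48.3 CPM in the SD+RS library against 87.4 CPM in the SD library, a ratio of -0.85 (-1.29 to -0.44), and 0 were higher. Of 5 genes that sense foreign nucleic acid, 0 passed 1.5 times in the endothelium.

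Further interferon-induced genes in the endothelium split as follows. Of 32 with at least 50 UMIs, 5 were higher and 1 lower past 1.5 times, where 6.3% of all genes of the class were higher and 5.73% lower. Their median log2 ratio was 0.04, beside 0.05 for all genes of the class. Uba7, which activates the Isg15 tag, had 39.8 CPM in SD+RS endothelial cells and 19.3 CPM in SD endothelial cells. Slfn2 had 65.5 CPM (SD+RS) and 36.3 CPM (SD). Dtx3l, a ubiquitin ligase, was the lower one, at 8.57 CPM (SD+RS) and 21.1 CPM (SD). Of 21 genes of antigen presentation and of the gamma-interferon type, 5 were higher and 0 lower against the same background, with a median of 0.30. These were the guanylate-binding genes Gbp2, Gbp4 and Gbp5 and the immunoproteasome genes Psmb8 and Psmb9. Psmb8 stood at 181 CPM in the SD+RS library and 108 CPM in the SD library, a log2 ratio of 0.74 (0.47 to 1.004), and Gbp2 at 67.8 (SD+RS) and 39.4 (SD) CPM. In the same cells 8 of 14 heat shock genes were lower, with a median of -0.64, and 1 of 10 early response genes was lower, with a median of -0.19.

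In astrocytes 2 of 17 further interferon-induced genes were higher and 1 lower past 1.5 times, with a median of 0.09 beside -0.03 for all genes, where 3.85% of all genes were higher and 7.17% lower. Parp9 had 10.6 CPM in SD+RS astrocytes and 5.86 CPM in SD astrocytes. Of 10 antigen presentation genes 2 were higher, namely Tap1, the peptide transporter, at 12.1 CPM (SD+RS) and 6.93 CPM (SD), and Igtp, an interferon-induced GTPase, at 12.3 CPM (SD+RS) and 7.99 CPM (SD). In microglia 3 of 15 were higher and 0 lower, among them the chemokine gene Ccl12, at 164 CPM in SD+RS microglia and 88.6 CPM in SD microglia, where 4.59% of all genes were higher and 6.62% lower. Cd74, of the class II pathway, was the 1 of 12 antigen presentation genes that was lower there, at 35.6 CPM (SD+RS) and 100.1 CPM (SD). Mural cells had 1 of 8 higher, Ifi35, and 1 lower, where 4.78% of all genes were higher and 11.1% lower. In neurons 0 of 24 were higher and 2 lower, 1 of them Ifitm3, at 0.408 CPM in SD+RS neurons and 0.778 CPM in SD neurons, where 1.62% of all genes were higher and 2.72% lower. Oligodendrocytes had 1 of 8 higher, Parp12, and 1 lower, Znfx1, where 4.23% of all genes were higher and 6.51% lower. Oligodendrocyte precursors had 0 of 3 in either direction, where 4.14% of all genes in that class were higher and 5.16% lower.

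Only 3 of the 9 genes appear as cluster markers in the authors' deposited tables. For both libraries together the authors' deposited table lists Bst2 in 44.9% of the cells of a cluster led by Cldn5 and Ly6c1, endothelial genes, and in 0.8% of the other cells. For the SD+RS library the authors' deposited table lists Bst2 in 66.7% of the cells of a cluster led by Anxa3 and Srgn, against 0.8% of the others. For the SD library the authors' deposited table lists it in 21.4% of a cluster led by the microglial genes Tyrobp and Csf1r, against 1.2%. Ifi27l2a is listed by the authors' deposited table in 57.9% of the cells of a cluster led by Six6 and En1 over both libraries, against 2.4%, and in 22.7% of an SD+RS cluster led by Meis2, against 2%. Oasl2 is listed by the authors' deposited table in 28.6% of an SD cluster led by Epcam, against 3.6%.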

How the data were processed

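The authors deposited raw UMI counts for each gene and barcode; the matrix header names Cell Ranger 3.0.2. Build mm10 and Seurat 4.0.4 are named in the submitters' processing notes. The deposited marker tables give the share of cells with a gene as a fraction, per the file headers, printed here as a percentage. All sample columns were mapped from the labels.

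Depth was 123500649 UMIs over 8106 barcodes (SD+RS) and 132191585 over 10262 (SD). Barcodes needed 500 genes and less than 20% of UMIs from mitochondrial genes, and 294 (SD+RS) and 578 (SD) doublets called with scrublet were removed. Both libraries were clustered together with scanpy 1.11.5 (2000 variable genes, 40 components, 20 neighbours, Leiden resolution 1.0; 1.5 for neurons alone) without interferon, heat shock, early response, mitochondrial, ribosomal, haemoglobin and sex-linked genes. A cluster took the class with the highest marker score, given at least 3 markers of that class each in 20% of its cells. The 3 clusters left unnamed had low depth, leading genes of another class, or a second class at 0.75 of the best score or more. The scoring rule was set after the clusters had been seen.

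UMIs were summed per class and scaled to UMIs per 1000000 (CPM). Levels have exact Poisson, shares Clopper-Pearson and log2 ratios conditional binomial 95% intervals. They cover counting error only. For a count of 0 the level of 3 counts is given, which lies below the upper end of the exact interval. The ratio step was checked on simulated data. Outside the 9 genes, those named from the wider lists had at least 50 UMIs in a class, a ratio of at least 1.5 and an interval without 0. Up to 5 in each direction per list and class were named. The 10 genes most alike in pattern were also named. Another 10 had the highest ratio in endothelial cells with at least 3 of the 7 genes, among genes with at least 20 UMIs there. Ifit3b and Ifi27l2b were named as close copies of members. Members, lists and markers were chosen with earlier results of these data known. The 11 alternatives tried are given at the end.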

Additional observations from a re-analysis of the deposited data

Results flagged for a closer look

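Ifit1 differed in direction between classes. Its log2 ratio, SD+RS over SD, was 1.52 in astrocytes, from 19 SD+RS and 12 SD UMIs, and -0.39 in endothelial cells, from 134 SD+RS and 306 SD UMIs. Both intervals lie on their own side of 0. With 1 library per group the difference itself was not tested, and the astrocytes of the libraries lay in different clusters.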

How the results depend on the processing

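With 1 library per group nothing here measures the spread between animals, and the pools differed in their share of cells from females and males. No paired analysis was possible because each group has 1 library. Keeping doublets, under 10% mitochondrial UMIs, at least 1000 genes, resolution 0.5 or 2.0 and leaving out shared barcodes moved no log2 ratio beyond its counting interval. Some of these settings widened or shifted an interval so that it held 0: with doublets kept, Ifi27l2a in neurons (-0.24) and Ifit2 in precursors (0.95), with the mitochondrial limit, Ifit2 in precursors (1.02) and Oasl2 in astrocytes (1.12), and at resolution 2.0, Ifi27l2a in neurons (-0.21). So did leaving out the 10 highest cells, for Ifi27l2a in neurons (-0.17), Ifit2 in astrocytes (0.64) and Ifit2 in precursors (1.14). At resolution 0.5 no oligodendrocyte precursor class was named, so it gave no value there.

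For the sum of the 9 genes, in cells with Xist UMIs only and then in those with Y-linked UMIs only, the log2 ratio was -0.32 and 0.20 in endothelial cells, -0.25 and 0.39 in microglia, 2.10 and -0.35 (reversed) in oligodendrocyte precursors, and 0.18 and -0.11 in neurons. With Xist UMIs only it was 0.57 in oligodendrocytes, and with Y-linked UMIs only 0.55 in astrocytes and -1.15 in mural cells. For the sum of the 7 genes it was -0.43 and 0.37 in endothelial cells and 2.07 and -0.35 (reversed) in precursors, and with Y-linked UMIs only -1.26 in mural cells and -0.10 in neurons. Thinned to 2000 UMIs, the sum of the 9 genes gave 0.42 in microglia, 0.49 in oligodendrocytes and -0.26 in neurons. The mean over cells gave -0.13 in neurons, and leaving out the 10 highest cells gave 0.55 in astrocytes. Single genes that reversed were Ifit1 in endothelial cells (0.49), Ifit3 in precursors (-0.49) and Ifi27l2a in microglia (2.999, from 3 SD+RS and 1 SD UMIs), all with Y-linked UMIs only, and Ifi27l2a in neurons with Xist UMIs only (0.078). A further 31 single-gene values moved without reversing. The cause was not tested.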
